A study of Mus musculus with 4 samples.

Results

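The Hippo pathway and its output were described here by 10 genes in mouse embryonic stem cells that lack Dgcr8, lack Dicer or have both. The genes were taken by their role in the pathway and looked up by symbol in the mRNA count table, where all 10 were found among 13815 rows. They are the kinase genes Lats1 and Lats2, the coactivator genes Yap1 and Wwtr1, the TEAD transcription factor genes Tead1 to Tead4, and the YAP target genes Ctgf and Cyr61. The dgcr8-/- cells, the dicer-/- cells and the WT cells each gave 1 poly(A) RNA library, and WT cells also gave 1 small RNA library. All were grown in 15% fetal bovine serum with ESGRO, a preparation of leukaemia inhibitory factor, at 1000 units/mL, and all carry the strain label V6.5, a mouse embryonic stem cell line. DGCR8 is the partner of Drosha in the nuclear complex that frees miRNA hairpins from their primary transcripts, and Dicer cuts those hairpins into mature miRNAs. The labels do not describe the alleles, the number of clones, passage or any feeder layer, so genotype cannot be told apart from cell line or culture.

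In the Hippo pathway, the kinases MST1 and MST2, with the adaptor SAV1, activate LATS1 and LATS2, whose cofactors are the MOB1 proteins. LATS kinases phosphorylate YAP (from Yap1) and TAZ (from Wwtr1), which holds these coactivators in the cytoplasm. Unphosphorylated YAP and TAZ enter the nucleus, bind TEAD proteins and switch on genes such as Ctgf and Cyr61. In the early mouse embryo, YAP with TEAD4 directs the trophectoderm, and in embryonic stem cells miRNAs of the miR-290 cluster are known for promoting rapid division.

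With 1 library per genotype there was no replicate and no test, and all p-values are left out. Counts were scaled to CPM, the counts of a gene per 1000000 counts of the library. The totals were 11123498 counts for the Dgcr8 knockout, 12309100 for the Dicer knockout and 9931625 for WT. Intervals are exact 95% intervals of a ratio of counts, and they cover counting error only. A gene was called higher or lower when log2(CPM + 1) differed by 2-fold or more between 2 libraries, provided that either of them held 1 CPM of it; all 10 genes passed this floor in every library. Each targeted gene was lowest in the library labelled as its knockout, and whether the remaining counts come from parts left in place is not known. Dgcr8 was at 20.9 CPM in the Dgcr8 knockout, against 84.7 CPM in the Dicer knockout and 52.7 CPM in WT. Dicer1 was at 128 CPM in the Dgcr8 knockout, 20.1 CPM in the Dicer knockout and 79.9 CPM in WT. All 10 listed stem cell markers were at 1 CPM or more in each library, with summed levels of 7682 CPM in the Dgcr8 knockout, 8251 CPM in the Dicer knockout and 11830 CPM in WT. The largest part of each sum was Dppa5a, at 2715 CPM in the Dgcr8 knockout, 4222 CPM in the Dicer knockout and 5564 CPM in WT. Single markers differed more than the sum: Klf4 was 4.16-fold lower than in WT in the Dgcr8 knockout and 5.59-fold lower in the Dicer knockout, Tdgf1 3.15-fold and 3.53-fold lower, and Zfp42 was 5.13-fold lower in the Dicer knockout. Sox2 was above WT, at 1.37-fold in the Dgcr8 knockout and 1.39-fold in the Dicer knockout, and so was Nanog, at 1.43-fold and 1.03-fold. Esrrb was above WT in the Dgcr8 knockout, at 1.245-fold, and below it in the Dicer knockout, by 1.06-fold. The part of these marker differences in the results was not tested.

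Both LATS kinase genes were higher in both knockouts than in WT, and 9 of the 10 genes were above WT in each knockout, the exception being Wwtr1. In the Dgcr8 knockout 4 of 10 genes were called higher (Lats1, Lats2, Tead3 and Tead4) and 0 lower, where 14.3% of all tested genes were called higher and 8.02% lower. The median log2 ratio of the 10 genes was 0.95, against 0.11 over all tested genes. In the Dicer knockout 6 of 10 were called higher (the same 4 with Ctgf and Cyr61) and 0 lower, where 16.0% of all tested genes were called higher and 9.70% lower. The median was 1.66, against 0.10 over all tested genes. Both comparisons use the same WT library, so they are not independent of each other. Scaling by TMM or by median ratios moved the median of all genes by -0.11 and -0.13 for the Dgcr8 knockout and by -0.10 and -0.11 for the Dicer knockout; under both the same numbers of the 10 genes were called and none changed direction. With those scalings, genes higher made up 55.4% and 53.6% of all calls in the Dgcr8 knockout instead of 64.1%, and 55.6% and 55.4% in the Dicer knockout instead of 62.3%.

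**Figure D1:**
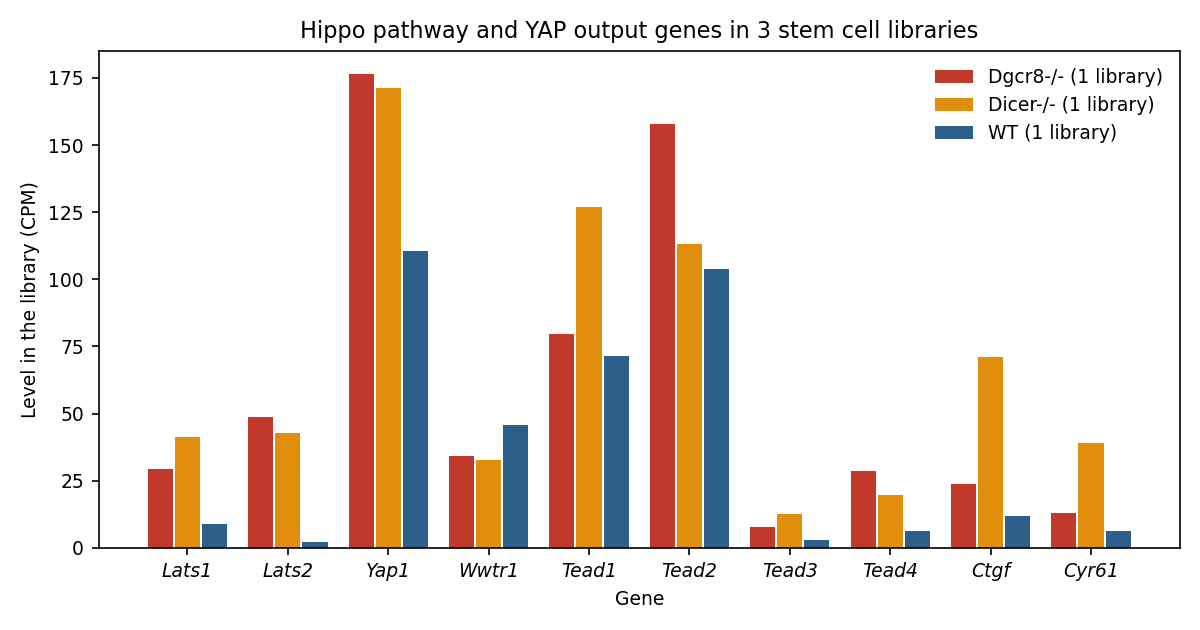
Level of each of the 10 genes in CPM (vertical axis, from 0) in the Dgcr8 knockout, Dicer knockout and WT library, 1 bar per library. Lats2 stands at 48.7, 42.7 and 2.11 CPM in these libraries, while Wwtr1 is the gene with its highest bar in WT. Bars of different genes are not comparable, because CPM is not corrected for transcript length.

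Lats2, which encodes the large tumour suppressor kinase 2, had the largest ratio of the 10 genes in both knockouts. Besides its place among the kinases, Lats2 is in the reported YAP and TAZ target signature used below. It was covered by 542 counts in the Dgcr8 knockout, 526 in the Dicer knockout and 21 in WT, or 48.7, 42.7 and 2.11 CPM in that order of libraries. The 2 knockouts lay close together and far above WT. Its CPM was 23.0-fold higher in the Dgcr8 knockout than in WT (95% interval 14.9 to 37.5) and 20.2-fold higher in the Dicer knockout (13.1 to 32.9). By log2 ratio it ranked 16th from the highest of 13223 tested genes in the Dgcr8 knockout and 58th of 13403 in the Dicer knockout. The Dgcr8 knockout over the Dicer knockout gave a ratio of 1.14 (1.01 to 1.29).

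Lats1, the paralogous kinase gene, was at 29.3 CPM (326 counts) in the Dgcr8 knockout, 41.3 CPM (508 counts) in the Dicer knockout and 8.76 CPM (87 counts) in WT. It was thus lowest in WT too, but by less than Lats2. The ratio to WT was 3.35 (2.63 to 4.29) in the Dgcr8 knockout and 4.71 (3.75 to 5.99) in the Dicer knockout. The count ratio of Lats2 over Lats1, from which transcript length drops out when libraries are compared, was 1.66 in the Dgcr8 knockout (1.45 to 1.91), 1.04 in the Dicer knockout (0.915 to 1.17) and 0.241 in WT (0.142 to 0.392). The balance of LATS transcripts therefore differed from WT in both knockouts beyond counting error, and it differed between the knockouts as well.

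Human relatives of the miR-290 cluster miRNAs are reported to repress LATS2 through a seed that begins AAGUGC, and the small RNA library shows how much of this class WT cells held. The sequences are given because Lats2 was the member furthest from WT; the capitals mark the seed, bases 2 to 8 from the 5′ end, and the sequences are those of RefSeq on GRCm38.p6.
miR-294-3p: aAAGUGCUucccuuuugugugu
miR-291a-3p: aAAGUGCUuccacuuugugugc
miR-295-3p: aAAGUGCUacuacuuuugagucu
miR-302b-3p: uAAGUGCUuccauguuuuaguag
miR-20b-5p: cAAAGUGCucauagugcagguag
miR-93-5p: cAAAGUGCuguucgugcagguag
miR-106b-5p: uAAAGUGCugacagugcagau
miR-17-5p: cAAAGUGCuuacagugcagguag
The first 4 share the seed AAGUGCU and the last 4 share AAAGUGC, in which the same hexamer is shifted by 1 base. Of 707 mature miRNAs listed, 546 matched a RefSeq sequence by name.

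Among the matched miRNAs, 5 had the seed AAGUGCU and took 667584 of 2594949 reads, or 25.7% (exact 95% interval 25.7 to 25.8%). Nearly all of these came from the miR-290 cluster, with 265812 reads of miR-294-3p, 237694 of miR-291a-3p and 163848 of miR-295-3p. The miR-302 cluster, which is known from primed cells, gave 122 reads of miR-302b-3p and 108 of miR-302d-3p. The 6 miRNAs with the seed AAAGUGC, from the miR-17 family, took 41444 reads (1.60%; 1.58 to 1.61%), led by miR-20b-5p (14824 reads), miR-93-5p (12433 reads) and miR-106b-5p (8793 reads). The 2 with the seed AAGUGCA took 4324 reads, of which miR-291b-3p had 4322. All 13 together held 27.5% of reads, a share of matched miRNAs only. It leaves out miR-292-3p (198264 reads, 7.64%) and miR-302a-3p (17 reads) of the same clusters. These matched no RefSeq sequence by name, so their seeds were not read.

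Of other miRNAs reported for these genes, 3 were looked up. miR-31-5p, reported to repress LATS2 in human and mouse lung cells, had 174 reads. For YAP1, reported regulators in human cells are miR-200a-3p, with 919 reads, and miR-375-3p, with 8 reads. Small RNA was sequenced from WT cells, so its levels in the knockouts, and target sites in Lats2, were not analysed here.

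**Figure D2:**
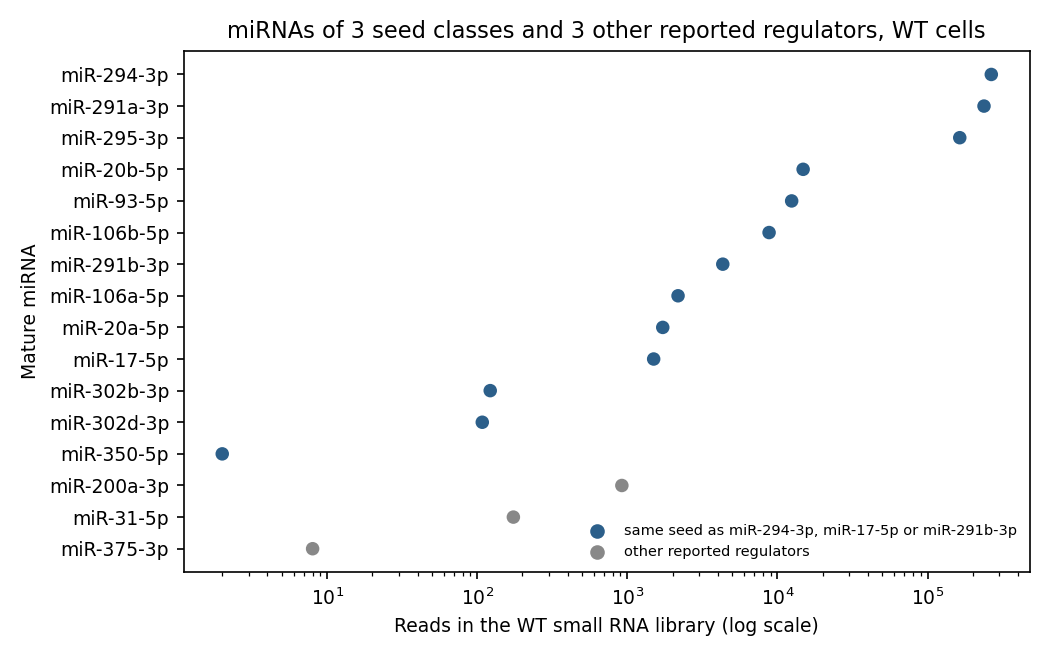
Reads of mature miRNAs (horizontal axis, log scale) in the WT small RNA library, 1 point per miRNA; blue points share a seed with miR-294-3p, miR-17-5p or miR-291b-3p, and grey points are the other reported regulators of Lats2 or Yap1. miR-294-3p stands at 265812 reads and miR-31-5p at 174.

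The genes nearest to Lats2 were sought over the whole table on the log2(CPM + 1) scale. Among 9770 genes outside the 10 that reached 10 CPM in at least 1 library, the 4 nearest by Euclidean distance between their pairs of log2 ratios (each knockout over WT) were Mir17hg, Aspa, Zbp1 and Zfp951, at distances of 0.154, 0.258, 0.264 and 0.319. These distances rest on 3 libraries. Aspa, Zbp1 and Zfp951 were below 1 CPM in WT, where the added 1 CPM compresses the ratios: in the Dgcr8 knockout the CPM of Zbp1 was 192-fold that of WT (34.1 to 7617) and the CPM of Aspa 95.5-fold (26.1 to 794). Mir17hg, the noncoding host transcript of the miR-17~92 cluster, had 472 counts in the Dgcr8 knockout, 509 in the Dicer knockout and 17 in WT. Zbp1, a sensor gene for left-handed nucleic acid, had 215 counts in the Dgcr8 knockout, 158 in the Dicer knockout and 1 in WT. Aspa, the aspartoacylase gene, had 214 counts in the Dgcr8 knockout, 234 in the Dicer knockout and 2 in WT. Zfp951, a zinc finger gene, had 266 counts in the Dgcr8 knockout, 356 in the Dicer knockout and 8 in WT.

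The coactivator genes diverged from each other in both knockouts. Yap1 was at 176 CPM (1961 counts) in the Dgcr8 knockout, 171 CPM (2109 counts) in the Dicer knockout and 110.4 CPM (1096 counts) in WT. Its CPM was 1.60-fold higher than in WT in the Dgcr8 knockout (1.48 to 1.72) and 1.55-fold higher in the Dicer knockout (1.44 to 1.67), neither of which reached 2-fold. These ratios depend on the scaling. Under TMM and median-ratio scaling the log2 ratio was 0.56 and 0.53 instead of 0.67 in the Dgcr8 knockout. In the Dicer knockout it was 0.53 and 0.52 instead of 0.63. All of these values under the other scalings lay below the counting intervals. Between the knockouts the ratio was 1.03 (0.967 to 1.10).

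Wwtr1, which encodes TAZ, was at 34.2 CPM (380 counts) in the Dgcr8 knockout, 32.7 CPM (403 counts) in the Dicer knockout and 45.7 CPM (454 counts) in WT. It was the one gene of the 10 below WT in both knockouts, by 1.34-fold in the Dgcr8 knockout (1.17 to 1.54) and 1.40-fold in the Dicer knockout (1.22 to 1.60), again short of 2-fold. The count ratio of Yap1 over Wwtr1 was 5.16 in the Dgcr8 knockout (4.62 to 5.78), 5.23 in the Dicer knockout (4.70 to 5.84) and 2.41 in WT (2.16 to 2.70). The knockouts had overlapping intervals for this ratio, and both lay above that of WT.

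The TEAD genes, whose products bind DNA for YAP and TAZ, had nearly the same summed CPM in both knockouts but different shares of it. These sums and shares are not corrected for transcript length, so a longer transcript weighs more in them. Their summed counts came to 274 CPM in the Dgcr8 knockout (3042 counts), 272 CPM in the Dicer knockout (3352 counts) and 184 CPM in WT (1830 counts). Tead4 and Tead3 were called higher than WT in both knockouts, while Tead1 and Tead2 were not called in either.

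Tead4, the TEAD gene needed for the trophectoderm in mouse embryos, was at 28.5 CPM (317 counts) in the Dgcr8 knockout, 19.8 CPM (244 counts) in the Dicer knockout and 6.14 CPM (61 counts) in WT. Its ratio to WT was 4.64 in the Dgcr8 knockout (3.52 to 6.21) and 3.23 in the Dicer knockout (2.43 to 4.35). Tead4 made up 10.4% of all TEAD counts in the Dgcr8 knockout (exact interval 9.36 to 11.6%), 7.28% in the Dicer knockout (6.42 to 8.21%) and 3.33% in WT (2.56 to 4.26%). So its share differed among all 3 libraries beyond counting error.

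Of 8 trophectoderm markers, 6 are in the table, and their summed level was 201 CPM in the Dgcr8 knockout, 168 CPM in the Dicer knockout and 77.3 CPM in WT. Most of that sum was Krt8 and Tfap2c, which other cells also express. The defining gene Gata3 had 4 counts in the Dgcr8 knockout, 19 in the Dicer knockout and 0 in WT, and Eomes was at 5.03 CPM in the Dgcr8 knockout, 5.28 CPM in the Dicer knockout and 10.2 CPM in WT. Cdx2 and Elf5 were looked up and not found in the table. In these bulk samples, more cells of a type and more RNA per cell cannot be told apart, and the part of these markers in the Tead4 level was not tested.

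Tead3 had the fewest counts of the 10 over the 3 libraries, at 7.73 CPM (86 counts) in the Dgcr8 knockout, 12.4 CPM (153 counts) in the Dicer knockout and 2.92 CPM (29 counts) in WT. The ratio to WT was 2.65 in the Dgcr8 knockout (1.72 to 4.19) and 4.26 in the Dicer knockout (2.85 to 6.57), so both knockouts were above WT, with wide intervals. With a pseudocount of 5 CPM its log2 ratio in the Dgcr8 knockout was 0.68 instead of 1.16, which ends the call.

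The other TEAD genes, Tead1 and Tead2, ordered the knockouts in opposite ways. Tead1 was at 79.5 CPM (884 counts) in the Dgcr8 knockout, 127 CPM (1563 counts) in the Dicer knockout and 71.3 CPM (708 counts) in WT. It stood above WT in the Dicer knockout, at a ratio of 1.78 (1.63 to 1.95), and near WT in the Dgcr8 knockout, at 1.12 (1.01 to 1.23). Tead2 was at 158 CPM (1755 counts) in the Dgcr8 knockout, 113 CPM (1392 counts) in the Dicer knockout and 104 CPM (1032 counts) in WT. Here the Dgcr8 knockout was the higher one, at a ratio to WT of 1.52 (1.41 to 1.64), with the Dicer knockout at 1.09 (1.003 to 1.18). The small ratios depend on the scaling: the log2 ratio of Tead1 in the Dgcr8 knockout was 0.15, and 0.04 and 0.02 under TMM and median-ratio scaling, and that of Tead2 in the Dicer knockout was 0.12, and 0.02 and 0.01 under them. The log2 ratio of Tead2 in the Dgcr8 knockout was 0.60, and 0.48 and 0.46 under them, both below its counting interval. The count ratio of Tead1 over Tead2, which no scaling affects, was 0.504 in the Dgcr8 knockout (0.464 to 0.546), 1.12 in the Dicer knockout (1.04 to 1.21) and 0.686 in WT (0.623 to 0.756).

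**Figure D3:**
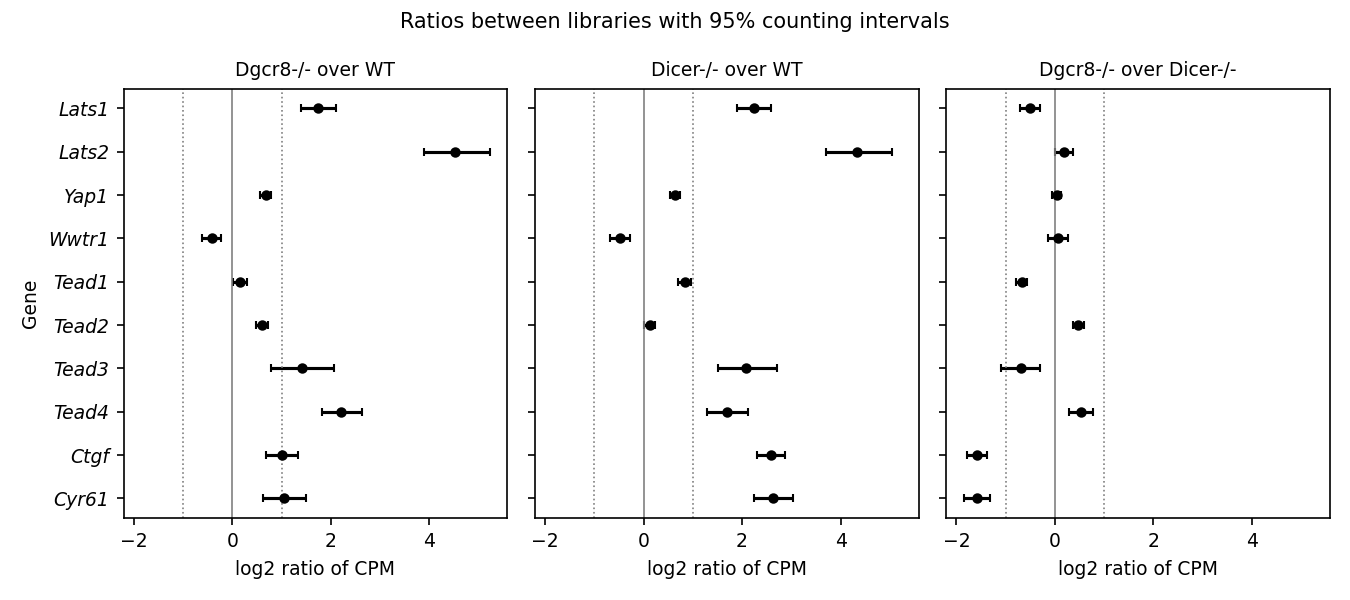
Log2 ratio of CPM for each gene (horizontal axis) in the Dgcr8 knockout over WT, the Dicer knockout over WT and the Dgcr8 knockout over the Dicer knockout; points are the ratios of single libraries, bars the exact 95% counting intervals, and dotted lines mark 2-fold. Lats2 stands furthest right in both panels against WT, and Ctgf and Cyr61 stand furthest left in the panel between the knockouts.

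The output genes Ctgf and Cyr61 were highest in the Dicer knockout, with the Dgcr8 knockout between it and WT. Both encode secreted matricellular proteins of the CCN family (now also named CCN2 and CCN1) and are the most used readouts of YAP activity. Ctgf was at 23.8 CPM (265 counts) in the Dgcr8 knockout, 71.1 CPM (875 counts) in the Dicer knockout and 11.9 CPM (118 counts) in WT. Its ratio to WT was 2.005 in the Dgcr8 knockout (1.61 to 2.51) and 5.98 in the Dicer knockout (4.93 to 7.31). Cyr61 followed the same order, at 13.1 CPM (146 counts) in the Dgcr8 knockout, 39.2 CPM (482 counts) in the Dicer knockout and 6.34 CPM (63 counts) in WT. Its ratio to WT was 2.07 in the Dgcr8 knockout (1.53 to 2.83) and 6.17 in the Dicer knockout (4.74 to 8.16).

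These 2 genes stood in nearly the same proportion in all 3 libraries. The count ratio of Ctgf over Cyr61 was 1.82 in the Dgcr8 knockout (1.48 to 2.24), 1.82 in the Dicer knockout (1.62 to 2.03) and 1.87 in WT (1.37 to 2.59). Relative to Yap1 counts, Ctgf was at 0.135 in the Dgcr8 knockout (0.118 to 0.154), 0.415 in the Dicer knockout (0.383 to 0.449) and 0.108 in WT (0.0883 to 0.130). The Dicer knockout stood apart from the other two by this measure, and the intervals of the Dgcr8 knockout and WT overlapped. In the Dgcr8 knockout neither gene was called, with log2(CPM + 1) ratios of 0.95 for Ctgf and 0.94 for Cyr61; with a pseudocount of 0.1 CPM these were 0.998 and 1.04, so that Cyr61 alone passed.

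The comparison between the knockouts does not use the WT library. Ctgf and Cyr61 were the 2 genes of the 10 called there, both lower in the Dgcr8 knockout, and 0 were called higher, where 5.05% of all tested genes were called lower and 4.15% higher. Ctgf was 2.98-fold lower in the Dgcr8 knockout than in the Dicer knockout (2.60 to 3.44) and Cyr61 2.98-fold lower (2.47 to 3.62). The other 8 had ratios of the Dgcr8 to the Dicer knockout from 0.622 for Tead3 (0.472 to 0.815) to 1.44 for Tead4 (1.21 to 1.71). The median log2 ratio of the 10 genes was -0.22, against 0.00 over all tested genes.

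Fibroblasts, which express Ctgf and Cyr61 strongly and may be present as feeder cells, were followed by 12 markers, of which 5 are in the table. Their summed level was 13.7 CPM in the Dgcr8 knockout, 8.61 CPM in the Dicer knockout and 45.0 CPM in WT. The collagen gene Col1a1 had 6 counts in the Dgcr8 knockout, 5 in the Dicer knockout and 97 in WT. Twist1 was the marker highest in the Dicer knockout, at 2.25 CPM in the Dgcr8 knockout, 5.85 CPM in the Dicer knockout and 1.61 CPM in WT. The other 7 markers, Dcn and Col1a2 among them, were looked up and not found in the table. The part of such cells in the levels of Ctgf and Cyr61 was not tested.

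The core promoters are shown because the TEAD proteins read a short site, GGAATG on one strand and CATTCC on the other. RefSeq promoter windows on GRCm38.p6, from 250 bases before to 50 bases after a transcript start, were held for 7 of the 10 genes; the authors' counts were made on mm9, so the windows give sequence only. The site was found on either strand in at least 1 window of 5 of these 7 (Lats2, Yap1, Wwtr1, Tead3 and Cyr61), and in none of those of Lats1 and Tead2. Over all genes with a window the share was 16.6% (4481 of 27025). A gene with more windows has more places for a match. By window, 7 of 11 held the site, against 14.7% of all windows (4817 of 32851), and the windows of Wwtr1 overlap and share their site. The sites in capitals stand in the Cyr61 window, chr3:145649936-145650235 on the minus strand, where the match is to the opposite strand and begins 103 bases before the start, and in the first Lats2 window, chr14:57746074-57746373 on the minus strand, just after the start.
Cyr61 promoter: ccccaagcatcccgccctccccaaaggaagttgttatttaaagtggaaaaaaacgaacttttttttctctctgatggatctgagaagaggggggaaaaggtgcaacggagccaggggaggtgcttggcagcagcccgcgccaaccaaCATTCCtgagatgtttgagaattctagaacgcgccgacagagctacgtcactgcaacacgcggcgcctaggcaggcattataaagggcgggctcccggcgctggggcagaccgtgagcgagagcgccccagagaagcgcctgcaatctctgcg
Lats2 promoter: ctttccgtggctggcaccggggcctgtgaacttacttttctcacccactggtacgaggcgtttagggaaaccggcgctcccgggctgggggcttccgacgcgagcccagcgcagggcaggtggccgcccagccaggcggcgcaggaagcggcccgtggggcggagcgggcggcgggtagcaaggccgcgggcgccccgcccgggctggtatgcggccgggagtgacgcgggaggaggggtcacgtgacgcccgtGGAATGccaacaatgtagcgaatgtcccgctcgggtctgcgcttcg
The letters describe these windows and are no evidence of binding. Ctgf, Tead1 and Tead4 are named only.

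The wider pathway was read from a list of 36 other regulators, of which 33 are in the table and were tested in each pair. In the Dgcr8 knockout 9 of 33 were called higher and 1 lower (14.3% and 8.02% of all tested genes), with a median log2 ratio of 0.49, against 0.11 over all tested genes. In the Dicer knockout 13 were called higher and 1 lower (16.0% and 9.70% of all tested genes), with a median of 0.83, against 0.10. Among the calls against WT, Vgll4 entered through the knockout libraries only and, in the Dgcr8 knockout, Amot through WT only, so these could differ in 1 direction only.

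Among the regulators with large ratios were a membrane scaffold, a merlin-related gene and a kinase gene. Nf2, which encodes the membrane scaffold merlin, was at 74.1 CPM in the Dgcr8 knockout, 79.9 CPM in the Dicer knockout and 24.5 CPM in WT, or 3.03-fold (2.62 to 3.51) and 3.27-fold (2.84 to 3.78) above WT. Frmd6, a merlin-related gene, was at 50.3 CPM in the Dgcr8 knockout, 34.6 CPM in the Dicer knockout and 16.0 CPM in WT, 3.14-fold (2.63 to 3.77) and 2.16-fold (1.80 to 2.61) above WT. Stk38, which encodes the LATS-related kinase NDR1, was at 215 CPM in the Dgcr8 knockout, 257 CPM in the Dicer knockout and 74.2 CPM in WT. All 3 genes were thus called higher in both knockouts.

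Vgll4, a TEAD-binding competitor of YAP, had 82 counts in the Dgcr8 knockout, 66 in the Dicer knockout and 6 in WT. Vgll3, another TEAD cofactor, had 21 counts in the Dgcr8 knockout, 147 in the Dicer knockout and 10 in WT, and was called in the Dicer knockout alone. It was 6.33-fold lower in the Dgcr8 knockout than in the Dicer knockout (3.99 to 10.5).

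The angiomotin genes, whose products bind YAP at cell junctions, went in different directions. Amot was the regulator called lower in both knockouts, with 8 counts in the Dgcr8 knockout, 17 in the Dicer knockout and 41 in WT. It was 5.74-fold (2.66 to 14.2) and 2.99-fold (1.66 to 5.61) below WT. With a pseudocount of 5 CPM, or a floor of 5 CPM, no regulator was called lower than WT in either knockout. Amotl1 was at 28.1 CPM in the Dgcr8 knockout, 38.0 CPM in the Dicer knockout and 12.9 CPM in WT, and was called higher in both. Amotl2, itself a reported YAP target, was at 32.8 CPM in the Dgcr8 knockout, 78.2 CPM in the Dicer knockout and 23.1 CPM in WT. It was called higher in the Dicer knockout, and it was 2.38-fold lower in the Dgcr8 knockout than in the Dicer knockout (2.11 to 2.69).

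The core cassette above LATS is given in full and was added to the named genes after the values were seen. Stk4 and Mob1b were called higher in the Dgcr8 knockout, where 14.3% of all tested genes were. In the Dicer knockout, where 16.0% of all tested genes were called higher, no gene of the cassette was. Stk4 (MST1) was at 127 CPM in the Dgcr8 knockout, 74.4 CPM in the Dicer knockout and 52.4 CPM in WT, and was called higher in the Dgcr8 knockout, at 2.42-fold (2.19 to 2.68). Stk3 (MST2) was at 28.0 CPM in the Dgcr8 knockout, 34.5 CPM in the Dicer knockout and 17.3 CPM in WT, and was called in neither. Its ratios of CPM to WT were 1.61 (1.34 to 1.96) and 1.99 (1.67 to 2.39). Sav1, the adaptor gene, was nearly level, at 34.8 CPM in the Dgcr8 knockout, 34.7 CPM in the Dicer knockout and 33.2 CPM in WT. Of the LATS cofactor genes, Mob1b was called higher in the Dgcr8 knockout, with 80 counts there, 73 in the Dicer knockout and 28 in WT. Its ratio of CPM to WT was 2.55 (1.64 to 4.08) in the Dgcr8 knockout and 2.10 (1.34 to 3.38) in the Dicer knockout. In the latter its log2(CPM + 1) ratio was 0.86, short of a call. Mob1a, with 257 counts in the Dgcr8 knockout, 192 in the Dicer knockout and 124 in WT, was called in neither.

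The reported YAP and TAZ target signature, without the 3 genes already described (Lats2, Ctgf and Cyr61), has 19 members, of which 15 are in the table. It shares Amotl2 and Ptpn14 with the regulator list. In the Dgcr8 knockout 5 of 14 tested targets were called higher and 1 lower (14.3% and 8.02% of all tested genes), with a median log2 ratio of 0.77, against 0.11 over all tested genes. In the Dicer knockout 7 of 15 were called higher and 1 lower (16.0% and 9.70% of all tested genes), with a median of 0.72, against 0.10. Tgfb2 entered there through the Dicer knockout only.

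Dock5, a Rac exchange factor gene, had the highest log2(CPM + 1) ratio of the targets in both knockouts, at 102.5 CPM in the Dgcr8 knockout, 169 CPM in the Dicer knockout and 19.8 CPM in WT. Its ratios of CPM to WT were 5.17 (4.44 to 6.04) and 8.54 (7.37 to 9.93). Fjx1, a Golgi kinase-like gene of the four-jointed family, was at 12.8 CPM in the Dgcr8 knockout, 16.2 CPM in the Dicer knockout and 2.42 CPM in WT, with ratios of CPM to WT of 5.28 (3.41 to 8.52) and 6.72 (4.39 to 10.7). Igfbp3, which encodes an insulin-like growth factor binding protein, was at 17.5 CPM in the Dgcr8 knockout, 32.7 CPM in the Dicer knockout and 4.73 CPM in WT. These 3 genes shared the order of Ctgf and Cyr61, with the Dicer knockout highest.

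Other targets did not share that order. Axl, a receptor tyrosine kinase gene, was at 11.7 CPM in the Dgcr8 knockout, 5.44 CPM in the Dicer knockout and 2.92 CPM in WT, and was called higher in the Dgcr8 knockout alone. Myof, the myoferlin gene, was at 93.9 CPM in the Dgcr8 knockout, 4.63 CPM in the Dicer knockout and 19.9 CPM in WT. It was called higher than WT in the Dgcr8 knockout, at 4.71-fold (4.04 to 5.51), and lower in the Dicer knockout, by 4.31-fold (3.19 to 5.89). Nt5e, an ectonucleotidase gene, was at 5.57 CPM in the Dgcr8 knockout, 11.5 CPM in the Dicer knockout and 12.6 CPM in WT, called lower in the Dgcr8 knockout.

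Between the knockouts, 0 of the 33 regulators were called higher and 3 lower in the Dgcr8 knockout (Vgll3, Amotl2 and Stk38l). Of the 15 targets 1 was called higher (Myof) and 2 lower (Tgfb2 and Amotl2). Tgfb2 reached the floor in the Dicer knockout only, so it could be called lower but not higher. Amotl2 is in both lists and is counted in each. Over all tested genes 4.15% were called higher and 5.05% lower. The median log2 ratio was -0.19 for the regulators and -0.26 for the targets, against 0.00 over all tested genes.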

How the data were processed

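Poly(A) RNA of 3 libraries and small RNA of 1 were analysed. Trizol RNA went into stranded mRNA libraries or small RNA libraries, per the labels' protocols. Both tables hold whole-number counts as the authors deposited them, per RefSeq entry and per mature miRNA; per the submitters' processing notes, Bowtie and the build mm9 were used. The counting of reads, its annotation and its strand setting were not given in the sources used here. Columns were matched to groups by name. Empty cells (221 in the Dgcr8 knockout, 138 in the Dicer knockout, 252 in WT) were read as 0, and every row reaches 10 counts in 1 library. Of counts from 2 to 9, 74.8% were even in the Dgcr8 knockout, 69.7% in the Dicer knockout and 69.6% in WT, which would follow from counting both reads of a fragment and would make intervals too narrow.

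CPM, ratios and exact conditional binomial or Clopper-Pearson intervals were computed in Python 3.11.15 with scipy 1.17.1, and TMM factors with edgeR 4.0.16. PCR reads are not independent molecules, so intervals cover counting error only. No test was possible. The code for the calls and intervals was checked on simulated counts drawn independently. Such counts hold no reads counted in pairs and no PCR copies, so this check does not cover those limits. The genes, lists and rules were chosen with earlier results of these data known. Named genes are the 10, the targeted genes, the 4 largest ratios of each list per knockout with 1 of the other direction, the 4 nearest to Lats2, and abundant or defining miRNAs and markers; the core cassette, Amotl1, Stk38l and Tgfb2 were added after their values were seen. Other settings changed the pseudocount (0.1 and 5 CPM), the floor (none and 5 CPM), the scaling and the size rule (1.5-fold). RefSeq sequences are of GRCm38.p6.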

Additional observations from a re-analysis of the deposited data

How the results depend on the processing

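Of 120 log2 ratios of the 10 genes under other pseudocounts and scalings, 102 stayed inside their counting interval and 18 moved outside it. There were 0 changes of sign. Another pseudocount cannot change the sign of a ratio, so only the scalings could have done so. With a 1.5-fold rule, 8 of the 10 genes were called in the Dgcr8 knockout over WT instead of 4, and 4 instead of 2 in the Dgcr8 over the Dicer knockout; there the regulators gave 8 instead of 3 and the YAP targets 9 instead of 3. With a pseudocount of 5 CPM, 6 regulators instead of 10 were called in the Dgcr8 knockout over WT, and in the Dicer knockout over WT 9 regulators instead of 14 and 5 YAP targets instead of 8; such a pseudocount shrinks the ratios of low genes by construction. A pseudocount of 0.1 CPM gave 5 YAP targets instead of 3 between the knockouts. The matched miRNAs of the 3 seed classes held 44.7% of small RNA reads instead of 27.5% when the most abundant miRNA, miR-293-3p, was left out of the total. The other 55 counts of calls stayed within 1.5 times. No paired analysis was possible because each genotype has 1 library, and no replicate could be left out. Depth limits the genes with few WT counts, such as Lats2 (21), Tead3 (29) and Vgll4 (6), where the intervals of the ratios are widest.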
